A study of Mus musculus with 4 samples.

Results

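The genes described here encode large-pore channels and the receptors and enzyme that read or remove extracellular nucleotides. They are 10 of the 18194 genes with a probe set of their own on the array, namely the channel genes Gja1, Calhm6, Calhm2 and Panx1, the receptor genes P2rx4, P2rx7, P2ry2, P2ry6 and P2ry14, and the ectonucleotidase gene Entpd1. The members were chosen from earlier results of these same 4 arrays, in part for the differences of some of them, so their levels and differences are given as a description and no test was run on them. Every probe set annotated to a single symbol, that of a member, is reported, which gave 22 probe sets, several each for Gja1, P2rx4, P2rx7 and Entpd1 and 1 each for the other 6 genes.

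Gene expression was measured on Affymetrix mouse arrays in myeloid-derived suppressor cell (MDSC) cultures after knockdown or exogenous expression of the long noncoding RNA lnc-C/EBPβ, which the labels name lncMDSC. The knockdown pair was kdLNC, infected with a lentivirus that carried an shRNA against the RNA, and kdNC, infected with a control shRNA lentivirus. The overexpression pair was oeLNC, infected with a lentivirus carrying the RNA, and oeNC, infected with its overexpression control lentivirus. Fresh bone marrow cells of C57BL/6 mice were used in all groups and were kept for 4 days with GM-CSF and IL-6, cytokines under which bone marrow cells turn into MDSCs. Each group was 1 culture on 1 array. The labels say neither how infected cells were selected nor which shRNA sequence was used, the age of the mice is not given in the sources used here, and the array annotation lists no probe set by the targeted RNA's name, so its level was not analysed here. The shRNA and the overexpression vector differ, so vector, culture and array cannot be told apart between the pairs.

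ATP, UTP and UDP-sugars are kept inside cells and leave them when cells are stressed, activated or dying, in part through wide channels made of connexins, pannexins or CALHM proteins. Outside the cell, nucleotides bind P2X receptors, which are ATP-gated cation channels, and P2Y receptors, which couple to G proteins, and both kinds are carried by macrophages and neutrophils. The ectonucleotidase CD39, encoded by Entpd1, cuts ATP and ADP to AMP, and CD73, encoded by Nt5e, cuts AMP to adenosine, a pathway studied in MDSCs because adenosine dampens T cells.

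The arrays were alike in overall level, with medians of 4.17 to 4.24 on the log2 scale. Of 10 neutrophil markers measured, all had a mean level above the median probe set, as had all 6 measured monocyte markers and 11345 of all 18194 genes. Among the monocyte markers Csf1r was bright, at 2758 to 3753, and Ccr2, Fn1 and Cx3cr1 were dim, at 18.3 to 34.2. Ms4a6c read 664 to 918 and F13a1 58.6 to 155. F13a1 was lowest in kdNC and highest in oeNC, more than 2-fold apart, with differences of 0.68 in the knockdown pair and -0.49 in the overexpression pair. Ly6g was not analysed here. In kdLNC, 5 of the 10 neutrophil markers were at least 2-fold lower than in kdNC (Ltf by a log2 difference of -2.70), and in the overexpression pair none was. The 3'/5' probe ratio of beta-actin, a measure of RNA integrity, was 1.96 in kdLNC and 1.61 in kdNC, and 1.97 in oeLNC and 1.96 in oeNC, all on the log2 scale. That of Gapdh was 0.69 in kdLNC and 0.51 in kdNC, and 0.65 in oeLNC and 0.53 in oeNC. A single array stood for each group, so no test was run and no replicate error can be given. The control difference, oeNC minus kdNC, was used as the only measure of spread, as its SD over the 500 probe sets nearest in level, and it holds vector, culture and array together.

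Promoter sequences are shown for the 2 channel genes with the largest differences, Gja1 and Calhm6, which both lie on chromosome 10. They are the RefSeq windows from 250 bases before to 50 bases after the transcript start (GRCm38.p6), written 5′ to 3′ along the transcribed strand, and capitals mark a match to the interferon-stimulated response element (ISRE) letters GAAANNGAA.
Calhm6 (chr10:34127923-34128222, minus strand): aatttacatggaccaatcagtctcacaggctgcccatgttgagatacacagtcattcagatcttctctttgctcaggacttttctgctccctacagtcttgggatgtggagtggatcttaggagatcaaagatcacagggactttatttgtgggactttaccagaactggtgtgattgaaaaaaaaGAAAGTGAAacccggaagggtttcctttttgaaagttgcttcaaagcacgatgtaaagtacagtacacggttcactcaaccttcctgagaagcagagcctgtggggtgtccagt
Gja1 (chr10:56377050-56377349, plus strand): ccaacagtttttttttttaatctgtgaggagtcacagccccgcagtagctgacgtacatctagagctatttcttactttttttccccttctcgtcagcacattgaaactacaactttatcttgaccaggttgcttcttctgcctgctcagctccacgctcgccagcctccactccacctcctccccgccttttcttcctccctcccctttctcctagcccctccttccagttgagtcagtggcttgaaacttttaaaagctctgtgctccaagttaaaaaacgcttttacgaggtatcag
The Calhm6 window held the ISRE letters once, as GAAAGTGAA beginning 64 bases before the transcript start, and the Gja1 window held no match to any motif searched. A search of both strands was made for 3 motifs, the C/EBP motif TTGCNNAA, the interferon-gamma activated site (GAS) TTCNNNGAA and the ISRE. Of all 32851 RefSeq promoter windows of this length, 10.8% held the C/EBP letters, 8.3% the GAS letters and 8.56% the ISRE letters. Windows were listed for 9 members, all but P2ry6, with 15 windows in all. The shares above are of windows, and the counts that follow are of members, which had up to 4 windows each. Calhm6 was the single member with the ISRE letters, in 1 of the 15 windows, no member had the GAS letters, and 3 had the C/EBP letters. These 3 were Panx1 (TTGCACAA, 212 bases before the start), P2ry2 (TTGCTCAA, 1 site held by both of its overlapping windows) and P2ry14, where 1 of the 4 windows held the letters on the opposite strand at 2 places. No match to 1 motif overlapped a match to another. A match is a run of letters and not a site shown to be bound.

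Gja1, Calhm6 and P2ry6 were at least 2-fold higher in kdLNC than in kdNC, and the other 7 members differed by less than 1.5-fold in that pair. Across all genes, 0.539% differed by at least 2-fold and 3.44% by at least 1.5-fold in the knockdown pair. In the overexpression pair 2 members passed 2-fold, Calhm6 higher in oeLNC and P2ry6 lower in oeLNC than in oeNC, and no further member passed 1.5-fold, where 0.918% of all genes passed 2-fold and 9.05% passed 1.5-fold. The control arrays differed more than either pair did. Between them 4 members passed 2-fold, with Gja1, P2ry6 and Entpd1 higher and Calhm6 lower in oeNC than in kdNC, and 6 passed 1.5-fold with P2rx7 higher and P2ry14 lower. The shares of all genes there were 4.7% at 2-fold and 15.1% at 1.5-fold. Because members were chosen with these contrasts in view, nothing is read from their counts against those shares. The median difference of the 10 members was -0.02 in the knockdown pair, -0.19 in the overexpression pair and 0.08 between the controls, against medians over all genes of -0.05, 0.04 and -0.02.

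**Figure D1:**
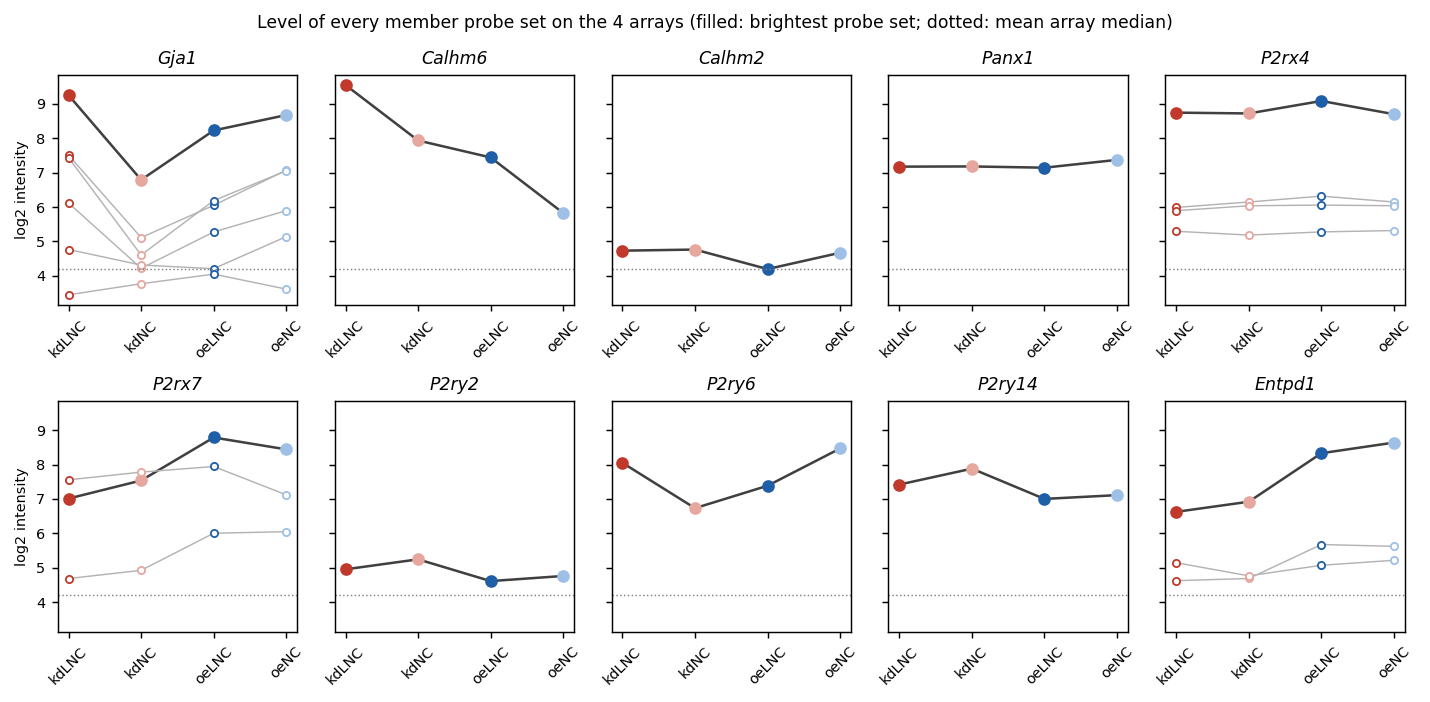
Log2 intensity (vertical axis) of every member probe set on the kdLNC, kdNC, oeLNC and oeNC arrays, 1 array each, with filled points for a gene's brightest probe set, open points for its others and a dotted line at the mean of the 4 array medians. At the brightest probe sets Gja1 and P2ry6 were lowest in kdNC, Calhm6 was highest in kdLNC and lowest in oeNC, and Entpd1 was higher on both oe arrays than on both kd arrays.

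Gja1 encodes connexin-43, the most widespread gap junction protein, which also forms channels open to the outside of the cell. At its brightest probe set the intensity was 609 in kdLNC and 111 in kdNC, and 299 in oeLNC and 408 in oeNC. The kdNC array was the low one, and the other 3 arrays all lay well above it. The log2 difference was 2.46 in the knockdown pair, the 4th highest of all 18194 genes, and -0.45 in the overexpression pair, while oeNC exceeded kdNC by 1.88, with a control SD of 0.58 at this level. The probe set ranked next by level, which is not of the kind that can match several transcripts, read 182 in kdLNC and 34.6 in kdNC, and 66.3 in oeLNC and 134 in oeNC. Here the overexpression difference reached -1.02, past 2-fold, and the knockdown difference was 2.39. The third probe set gave 172 in kdLNC and 24.3 in kdNC, and 72.9 in oeLNC and 133 in oeNC, with differences of 2.83 and -0.87. The fourth gave 69.3 in kdLNC and 18.6 in kdNC, and 38.7 in oeLNC and 59.5 in oeNC, with differences of 1.90 and -0.62. At each of these 4 probe sets kdLNC was the highest array and kdNC the lowest. The fifth read 27.2 in kdLNC and 19.9 in kdNC, and 18.5 in oeLNC and 35.2 in oeNC. The dimmest, below the array median throughout, read 10.9 in kdLNC and 13.6 in kdNC, and 16.6 in oeLNC and 12.2 in oeNC, and was the single Gja1 probe set with a negative knockdown difference (-0.32) and a positive overexpression difference (0.44).

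Connexin-43 is known as a protein of stromal cells and fibroblasts as well as of macrophages, and the 10 stromal markers were therefore set beside it. None of the 10 differed by 1.5-fold in either pair, and their median difference was -0.20 in the knockdown pair and 0.12 in the overexpression pair. Their median log2 level was 4.24 in kdLNC and 4.49 in kdNC, and 4.50 in oeLNC and 4.33 in oeNC. These levels were near the array medians, and 6 of the 10 had a mean above the median probe set. The part of stromal cells in the Gja1 differences was not tested. In these bulk cultures fewer cells of a type and less RNA per cell cannot be told apart. Set against the mean of kdNC and oeNC together, the Gja1 difference was 1.52 in the knockdown pair and 0.49 in the overexpression pair, so its overexpression sign turned.

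Calhm6 encodes a CALHM family channel protein known as an interferon-inducible gene of macrophages and dendritic cells. Its probe set read 748 in kdLNC and 245 in kdNC, and 174 in oeLNC and 56.8 in oeNC. Both knockdown-pair arrays stood above both overexpression-pair arrays, and within each pair the culture with altered lnc-C/EBPβ was the higher one. The log2 difference was 1.61 in the knockdown pair and 1.61 in the overexpression pair, the 10th and the 3rd highest of all genes, so Calhm6 went the same way under both manipulations. The control arrays differed by more, with oeNC minus kdNC at -2.11 (control SD 0.63). Set against the mean of both controls, Calhm6 was higher by 2.67 in kdLNC and by 0.56 in oeLNC, which no longer passed 2-fold.

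The 11 interferon response genes measured were set beside Calhm6. In the knockdown pair their median difference was -0.32 and none was 2-fold different, with Mx1 at -0.76 and Ifit3 at -0.66. Most of them were thus lower in kdLNC, where Calhm6 was higher. Gbp2 (0.42), Irf1 (0.10) and Cxcl9 (0.38, and -0.17 at its second probe set) went the way of Calhm6 there. In the overexpression pair the median was 0.26 and 2 of the 11 were at least 2-fold higher in oeLNC, Ifit2 by 1.14 and Cxcl9, a chemokine, by 1.07, although a second Cxcl9 probe set read -0.06. Between the control arrays the median was -0.45, the direction that Calhm6 had there. Markers of other cells also differed between the control arrays. The 6 mast cell and basophil markers had a median of -1.43 in oeNC minus kdNC (Ms4a2 -2.32) and the 6 lymphocyte markers -0.73 (Ms4a1 -2.09). In the knockdown pair the medians of these lists were -0.10 and -0.06, and in the overexpression pair 0.34 and 0.11. The 5 eosinophil markers had medians of -0.91 between the controls and -0.88 in the knockdown pair, where Epx (-1.12) and Ccr3 (-1.09) were at least 2-fold lower in kdLNC. The part of these cells in the Calhm6 differences was not tested.

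The other channel genes were level. Calhm2, a family member known from the brain and from myeloid cells, read 26.6 in kdLNC and 27.2 in kdNC, and 18.3 in oeLNC and 25.5 in oeNC, with differences of -0.03 and -0.47. Panx1, whose pannexin channel releases ATP and is opened by caspases in dying cells, read 144 in kdLNC and 145 in kdNC, and 141 in oeLNC and 166 in oeNC. Its differences were -0.01 and -0.23, within 1 control SD in both pairs.

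**Figure D2:**
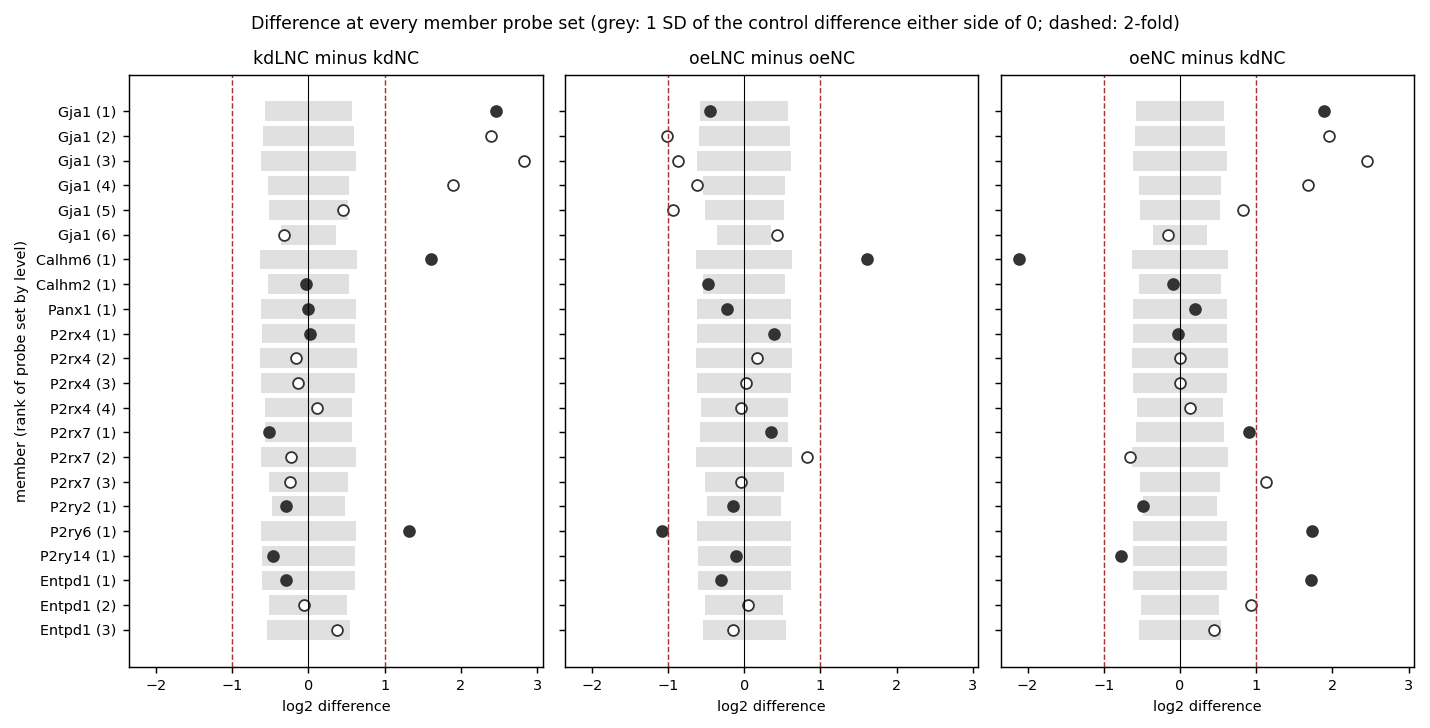
Log2 difference (horizontal axis) at each member probe set, by gene and rank of level (vertical axis), for the knockdown pair (kdLNC minus kdNC), the overexpression pair (oeLNC minus oeNC) and the controls (oeNC minus kdNC), with grey bars for 1 SD of the control difference either side of 0 and dashed lines at 2-fold. In the knockdown panel 4 Gja1 probe sets, Calhm6 and P2ry6 lie beyond 2-fold, and in the control panel probe sets of the same genes, of Entpd1 and of P2rx7 (1.12, its dimmest) do.

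Among the P2X receptor genes, P2rx4 encodes an ATP-gated channel of macrophages and microglia and differed little in either pair. Its brightest probe set read 429 in kdLNC and 422 in kdNC, and 542 in oeLNC and 416 in oeNC, so that oeLNC was slightly above the other 3 arrays. The differences were 0.02 in the knockdown pair and 0.38 in the overexpression pair. Over all 4 of its probe sets, knockdown differences ran from -0.16 to 0.11 and overexpression differences from -0.04 to 0.38, and the control difference lay between -0.02 and 0.13.

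P2rx7 encodes the ATP receptor that opens at high ATP and sets off the inflammasome. Its brightest probe set read 129 in kdLNC and 186 in kdNC, and 441 in oeLNC and 347 in oeNC. Both overexpression-pair arrays were above both knockdown-pair arrays, and the differences were -0.52 in the knockdown pair, 0.35 in the overexpression pair and 0.90 between the controls. The dimmest of its 3 probe sets showed the same split, with 25.7 in kdLNC and 30.4 in kdNC, and 64.1 in oeLNC and 66.1 in oeNC. The remaining probe set read 188 in kdLNC and 220 in kdNC, and 246 in oeLNC and 139 in oeNC, and there oeNC was the lowest array. Its control difference was -0.66, against 0.90 and 1.12 at the others, so the P2rx7 probe sets disagreed on the order of the controls. All 3 were lower in kdLNC than in kdNC, with differences of -0.22 to -0.52.

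P2ry6 encodes a receptor for UDP that is known from phagocytosis by microglia and from macrophage chemokine release. Its single probe set read 265 in kdLNC and 106 in kdNC, and 167 in oeLNC and 354 in oeNC. The control arrays were the lowest and the highest of the 4, and both cultures with altered lnc-C/EBPβ lay between them. P2ry6 was thus higher in kdLNC by 1.32, the 20th highest difference of all genes, and lower in oeLNC, where the difference was -1.08, the 75th lowest. The control difference was 1.73 (control SD 0.62), larger than either. Against the mean of both controls the differences were 0.45 and -0.22, and neither passed 1.5-fold.

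Gja1 and P2ry6 were the 2 members higher in kdLNC and lower in oeLNC, a combination of any size found in 19.2% of all genes. Of these, only P2ry6 passed 1.5-fold in both pairs at its brightest probe set, a combination found in 0.495% of all genes. It passed 2-fold in both as well, as did the second Gja1 probe set. The Gja1 probe sets with overexpression differences of -0.87 and -0.62 passed 1.5-fold in both pairs, higher in kdLNC and lower in oeLNC. That P2ry6 alone was counted at 1.5-fold thus rests on the use of brightest probe sets. The share of all genes past 2-fold in both was not counted, and the shares given are for brightest probe sets. For both genes kdNC was the lowest array, while the highest was kdLNC for Gja1 and oeNC for P2ry6.

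P2ry2 and P2ry14 encode receptors for ATP and UTP and for UDP-glucose. P2ry2 read 31.0 in kdLNC and 37.9 in kdNC, and 24.4 in oeLNC and 27.1 in oeNC, a dim probe set with differences of -0.29 and -0.15. P2ry14 read 171 in kdLNC and 236 in kdNC, and 128 in oeLNC and 138 in oeNC. Its differences were -0.46 and -0.11, and oeNC was below kdNC by a difference of -0.77, so the knockdown-pair arrays were the higher ones.

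Entpd1 encodes CD39, the enzyme that starts the breakdown of extracellular ATP. Its brightest probe set read 98.7 in kdLNC and 121 in kdNC, and 322 in oeLNC and 398 in oeNC. The overexpression pair was high and the knockdown pair low, with little difference inside either pair (-0.29 and -0.31) and 1.72 between the controls. The next probe set kept that split at 24.6 in kdLNC and 25.8 in kdNC, and 51.1 in oeLNC and 49.2 in oeNC. The dimmest did not, at 35.4 in kdLNC and 27.2 in kdNC, and 33.6 in oeLNC and 37.2 in oeNC. Entpd1 and P2rx7 were the 2 members with both oe arrays above both kd arrays, an order that 26.6% of all genes had. Calhm6, Calhm2, P2ry2 and P2ry14 had the reverse order, which 22.8% of all genes had.

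The related genes of these families were next compared, in 6 lists of 62 genes, of which 46 were measured and 22 of those had a mean level above the median probe set. None of the 46 differed by 2-fold in the knockdown pair and none in the overexpression pair, where 0.539% and 0.918% of all genes did. At shares this low, none among 46 genes is not read as setting the members apart. At 1.5-fold, 1 was higher and 4 were lower in kdLNC, and 3 were higher and 2 were lower in oeLNC. The shares of all genes at 1.5-fold were 3.44% and 9.05%. Between the controls 1 was at least 2-fold higher in oeNC and 1 at least 2-fold lower, where 4.7% of all genes passed 2-fold.

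Among the 13 other connexins measured, 2 had a mean above the median probe set, and the largest differences were 0.74 for Gjb2 and 0.67 for Gjd2 in oeLNC and -0.59 for Gjc1 in kdLNC, all at intensities of 9.62 to 31.6. No other connexin therefore stood near Gja1 in its knockdown difference. The connexin median was -0.08 in the knockdown pair and 0.24 in the overexpression pair, which became 0.11 after a further quantile normalization. The 8 other CALHM, pannexin and LRRC8 channel genes, the last of which form volume-regulated anion channels, had no difference of 1.5-fold in either pair, with Lrrc8d at 0.15 in the knockdown pair and -0.47 in the overexpression pair. Of these 8, 3 had a mean above the median probe set, namely Lrrc8a, Lrrc8c and Lrrc8d. Calhm4, Calhm5, Panx2, Panx3 and Lrrc8e read 2.57 to 12.5, too dim to show whether they were unchanged.

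Of the 5 other P2X genes, P2rx1 had log2 levels of 5.59 in kdLNC and 6.30 in kdNC, and 5.71 in oeLNC and 5.72 in oeNC, so that kdNC was the high array and the knockdown difference was -0.72. Of the 5 other P2Y genes, P2ry10, which encodes a receptor for lysophospholipids despite its name, read 95.5 in kdLNC and 56.1 in kdNC, and 40.9 in oeLNC and 75.8 in oeNC. It was higher in kdLNC by 0.77 and lower in oeLNC, at -0.89. Its control arrays differed by 0.43, less than either pair did, and unlike those of P2ry6 they lay between kdLNC and oeLNC. P2ry13, a receptor for ADP, read 87.1 in kdLNC and 102 in kdNC, and 46.9 in oeLNC and 35.9 in oeNC, and the control difference of -1.5 was the 2-fold one named above.

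Nt5e encodes CD73, which follows CD39 in the pathway to adenosine. It read 22.4 in kdLNC and 35.5 in kdNC, and 60.2 in oeLNC and 82.1 in oeNC, with differences of -0.67 and -0.45 and a control difference of 1.21. As at the brightest Entpd1 probe set, though not at its others, both overexpression-pair arrays were higher and each altered culture was below its own control. The other 8 ectonucleotidase genes measured included Entpd2, at 0.72 in the overexpression pair. In adenosine handling, Slc29a3, a nucleoside transporter, had a knockdown difference of -0.71, Ada, the enzyme that breaks down adenosine, -0.57, and Adk, the kinase that turns adenosine into AMP, had an overexpression difference of -0.74. The 6 genes of that list had medians of -0.21 and 0.16.

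**Figure D3:**
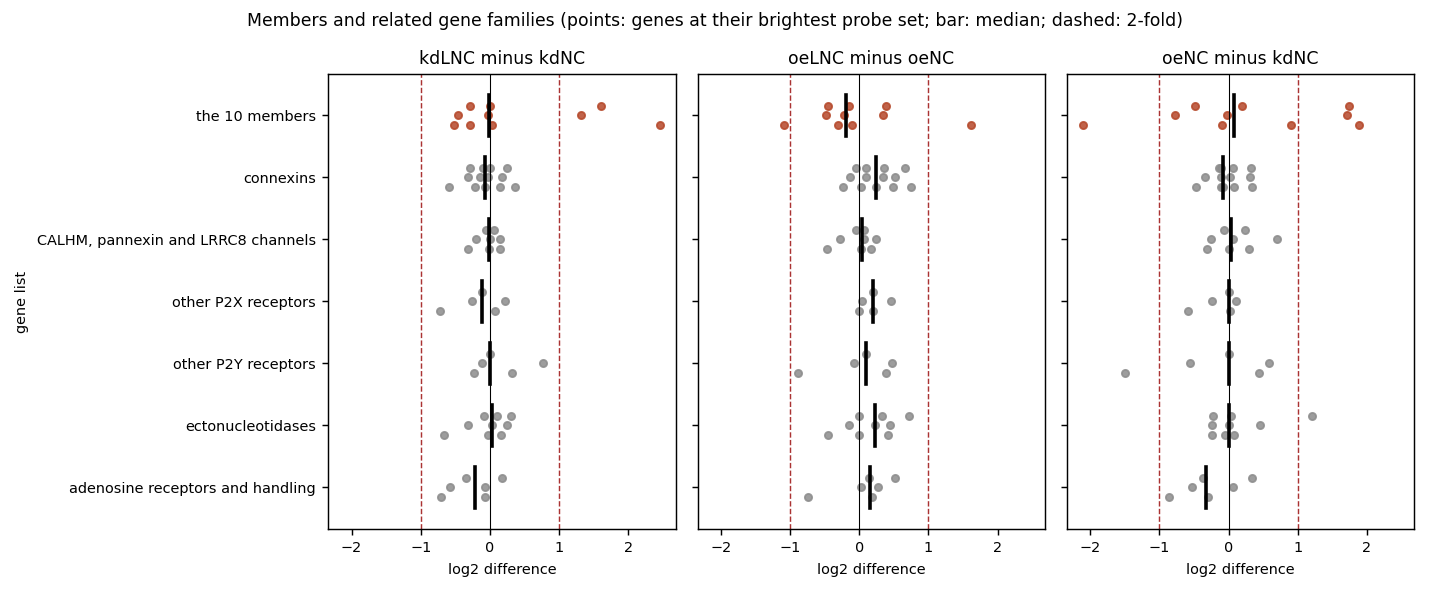
Log2 differences (horizontal axis) of the 10 members and of the genes of 6 related lists (vertical axis), each point a gene at its brightest probe set, with black bars at list medians and dashed lines at 2-fold. In both pairs the points beyond 2-fold are members, which were chosen in part for their differences. Between the controls Nt5e (1.21) and P2ry13 (-1.5) join them.

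The genes nearest in pattern to the 3 members that passed 2-fold in a pair were found among 9097 genes with a mean above the median over genes, by Euclidean distance over the 4 log2 values after each gene was centred on its own mean. For Gja1 they were Pid1 (distance 0.52), U90926 (0.59) and Mmp13 (0.65), the last a collagenase. Mmp13 read 2575 in kdLNC and 817 in kdNC, and 1296 in oeLNC and 2208 in oeNC. For Calhm6 they were Clic5 (0.69), Gimap4 (0.86) and Batf2 (0.91). Their knockdown differences of 0.55 to 0.70 were smaller than that of Calhm6, and their control differences were -2.10 to -2.81. For P2ry6 they were Malt1 (0.20), the chemokine gene Cxcl3 (0.22) and Bicral (0.24), which were closer to it than any neighbour was to the other members. Cxcl3 read 4374 in kdLNC and 1627 in kdNC, and 2672 in oeLNC and 4792 in oeNC, the order of arrays that P2ry6 had.

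**Figure D4:**
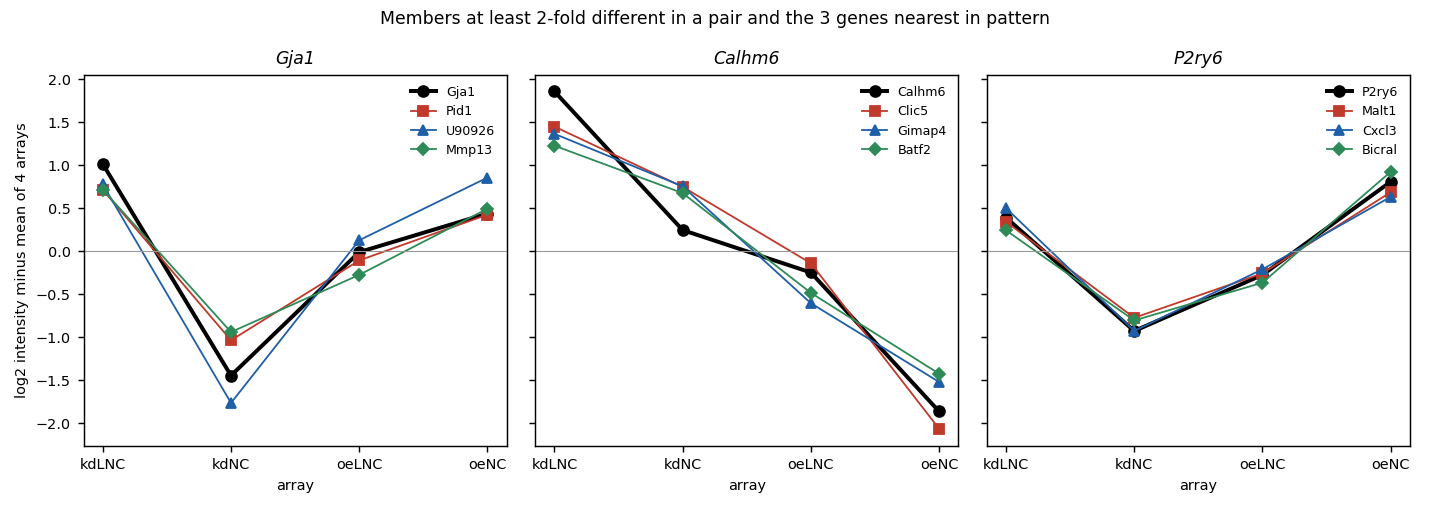
Log2 intensity minus the mean of the 4 arrays (vertical axis) on kdLNC, kdNC, oeLNC and oeNC for Gja1, Calhm6 and P2ry6 (black) and the 3 genes nearest to each. P2ry6 and its neighbours are lowest in kdNC and highest in oeNC, and the neighbours of Calhm6 share its order of arrays with a smaller step inside the knockdown pair.

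Macrophage markers were set beside P2ry6 and Entpd1, since macrophages carry both. The 7 measured markers had median differences of 0.08 in the knockdown pair, -0.42 in the overexpression pair and 0.54 between the controls. Mrc1, the mannose receptor, read 17.5 in kdLNC and 8.83 in kdNC, and 18.8 in oeLNC and 30.7 in oeNC, with kdNC lowest and oeNC highest as for P2ry6. Mrc1 was dim, with a mean below the median probe set. Its log2 level in kdNC was 3.14, under that array's median of 4.20. Mertk, a receptor for dying cells, had the opposite order at the ends, with 24.0 in kdLNC and 33.2 in kdNC, and 30.4 in oeLNC and 23.7 in oeNC. The markers Adgre1 and Cd68, far brighter on their own probe sets, were level, with knockdown differences of 0.08 and -0.08. C1qb read 48.2 in kdLNC and 42.4 in kdNC, and 45.5 in oeLNC and 74.4 in oeNC. C1qa read 15.2 in kdLNC and 14.5 in kdNC, and 15.6 in oeLNC and 21.0 in oeNC, with a mean below the median probe set. Like Mrc1, the markers C1qa, C1qb, C1qc and Adgre1 were lowest in kdNC and highest in oeNC, Adgre1 by little, and Cd68 and Mertk were not. The part of macrophage content in the P2ry6 and Entpd1 differences was not tested.

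**Figure D5:**
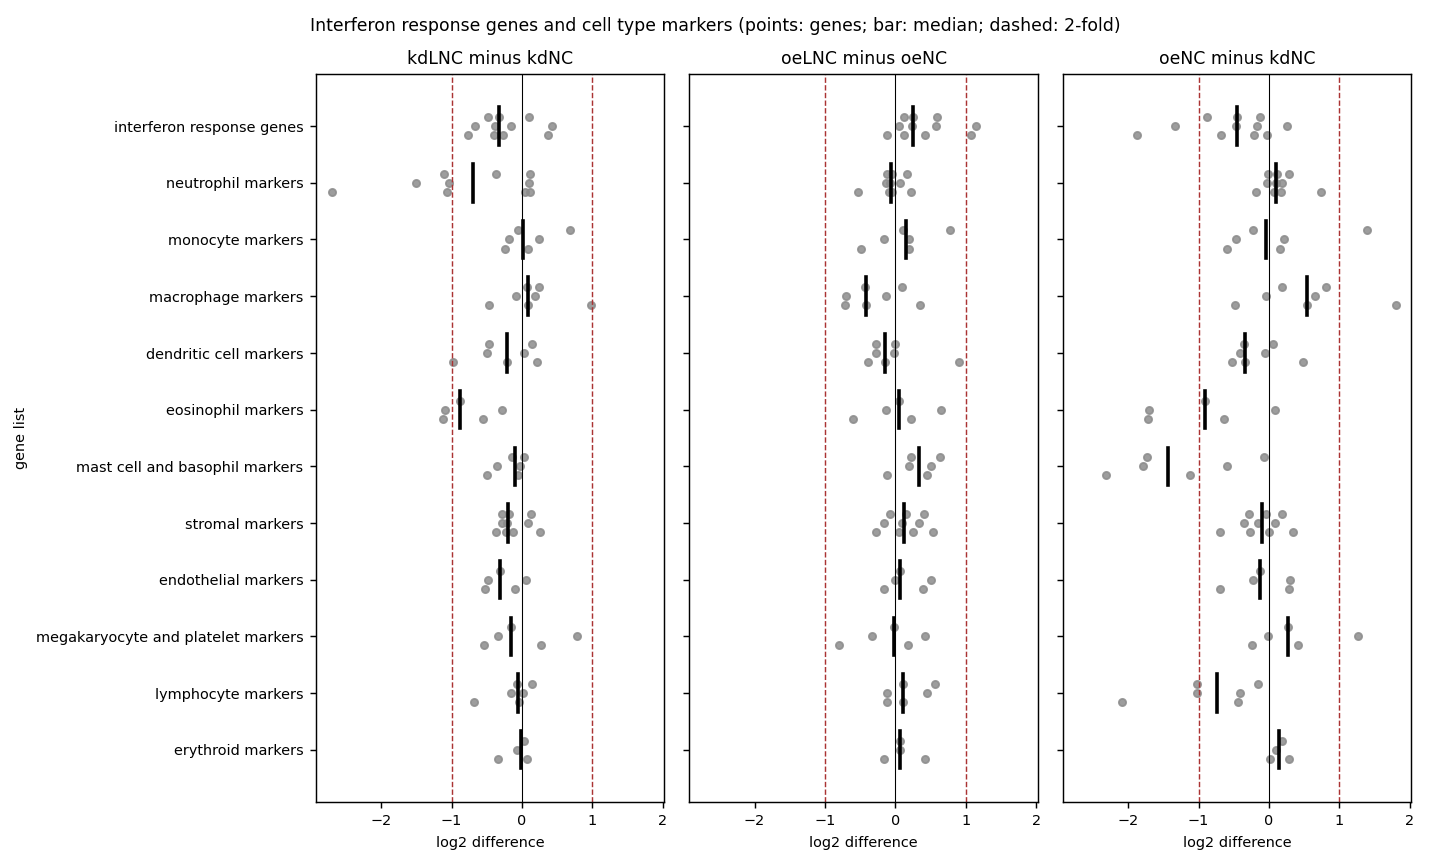
Log2 differences (horizontal axis) of interferon response genes and markers of 11 cell types (vertical axis), each point a gene, with black bars at list medians and dashed lines at 2-fold. Neutrophil markers are spread to -2.70 in the knockdown panel, stromal markers lie within 1.5-fold in both pairs, and mast cell and basophil markers are low in oeNC against kdNC.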

How the data were processed

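The authors measured RNA of 4 MDSC cultures on Affymetrix GeneChip mouse arrays, 1 array per group. They deposited intensity values of 45101 probe sets, on a linear scale, and the submitters' processing notes give RMA with no version or settings. Log2 of these values was taken here with Python 3.11.15, numpy 2.4.6, pandas 2.3.3, statsmodels 0.14.6 and matplotlib 3.10.9. The platform annotation names 1 symbol for 34958 probe sets, which alone were used. Where a gene had several probe sets, the brightest by its mean over all 4 arrays was taken, and no filter on low values was applied. Groups came from the labels, and that lncMDSC is lnc-C/EBPβ came from the study's text.

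The methods' limma test needs replicate arrays and could not be fitted, so a 2-fold difference was used as the threshold, after those methods, and precision is limited by the number of arrays. Members and lists were chosen with earlier results of these data known. Genes named are all members, up to 3 genes of each list with the largest differences, genes at least 2-fold different, and the 3 nearest patterns. Genes named from the lists for their control difference, or to show a level marker, were chosen after their values were seen. The calculation was tested on simulated data. Alternatives were median centring, quantile and loess normalization, the mean of probe sets, leaving out probe sets shared by several transcripts, the mean of both controls, filters on level and other fold thresholds.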

Additional observations from a re-analysis of the deposited data

How the results depend on the processing

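The 2-fold counts of members were 3 in the knockdown pair, 2 in the overexpression pair and 4 between the controls. In the overexpression pair the count was 1 at a 3-fold threshold and 0 when both controls were averaged as the control, where the member median was 0.12 against -0.19. Without probe sets shared by several transcripts that count was 3 of 9 members, with Gja1 at -1.02. Of the differences of single members under these alternatives, 155 moved by less than 1 control SD and 12 by more, and 14 had the other sign. The Gja1 knockdown difference was 1.62 as the mean of its probe sets, the Entpd1 control difference was 1.04 on that basis, and the P2rx7 control difference was -0.66 without probe sets shared by several transcripts. All 10 members passed a filter at the 50th percentile and 8 passed one at the 70th, which Calhm2 and P2ry2 did not. No paired analysis was possible because a single array stands for every group, and for that reason no array could be left out. Signal over background is not known from the values used here, which limits what the dim probe sets of Gja1, Calhm2 and P2ry2 can show.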
